A study of Mus musculus with 16 samples.

Results

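In liver, genes of the growth hormone (GH) and IGF1 axis were followed by name through bulk RNA sequencing: the receptor Ghr, the transducers Stat5a and Stat5b, the feedback inhibitors Socs2 and Cish, the transcription factors Bcl6 and Onecut1, and the secreted products Igf1, Igfals and Igfbp2. The members are 10 of 25803 genes in the joined count tables, each found by an exact match of its symbol, and all 10 passed the filter on low counts together with 14488 genes in all. The mice were males fed a high-fat diet for 12 weeks. The labels name control mice and mice with a liver-specific loss of Cpt1a (LKO). Tissue was taken after fasting for 16 h in the fasted groups, and after that fast plus refeeding for 6 h in the refed groups. Each of the 4 groups has 4 libraries, all on the same diet; how the knockout was made, the strain and the age are not given in the sources used here.

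Growth hormone from the pituitary binds GHR on the hepatocyte, which activates the kinase JAK2 and, through it, STAT5A and STAT5B. STAT5 dimers enter the nucleus and drive Igf1, Igfals, Socs2 and Cish, while BCL6 occupies many STAT5 sites and acts there as a repressor. IGF1 circulates with the acid-labile subunit encoded by Igfals and an IGF binding protein, and fasting is known to make the liver resistant to GH.

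STAT5 binds the palindrome TTCNNNGAA, and the stretches that hold it near the start sites of 3 of the genes are shown to give its place in the windows searched. In the RefSeq windows of 300 bases (250 before the start, GRCm38.p6), 9 of the 10 genes had a window, and Socs2 had none. The palindrome occurred in 5 of the 16 windows, the single window of Cish, both windows of Bcl6 and 2 of the 3 windows of Igfals, against 8.30% of 32851 windows of all genes. The motif is a palindrome, so a search reads both strands at once. The palindrome with 1 more base in its middle was searched too and occurred in 0 of the 16 windows, against 6.95% of all windows. Capitals mark the matches, and positions count from the RefSeq start.
Cish, chr9:107296657-107296686, plus strand, positions -2 to 28: ttTTCCTGGAAagTTCTTGGAAatctgtca
Bcl6, first start, chr16:23988952-23988980, minus strand, positions -128 to -100: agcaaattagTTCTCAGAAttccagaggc
Bcl6, second start, chr16:23981353-23981461, minus strand, positions -178 to -70: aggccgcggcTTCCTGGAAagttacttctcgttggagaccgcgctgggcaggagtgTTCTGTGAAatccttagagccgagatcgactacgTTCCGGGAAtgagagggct
Igfals, one start, chr17:24877598-24877626, plus strand, positions -246 to -218: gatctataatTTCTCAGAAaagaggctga
Igfals, another start, chr17:24878163-24878191, plus strand, positions -68 to -40: ctgccaggtgTTCCTAGAAgaggccctgg
A window with 2 or more matches, as in Cish and the second start of Bcl6, occurred in 0.457% of all windows. No match in the windows of Ghr, Igf1, Igfbp2, Stat5a, Stat5b and Onecut1 says only that these letters are not in those 300 bases.

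Libraries held 14721601 to 24618230 counts. Levels below are CPM, counts scaled to a common library size with edgeR's TMM factors. Cpt1a, the gene deleted in LKO liver, lay at 378 to 556 CPM in fasted control and 86.1 to 126 CPM in fasted LKO libraries, and at 319 to 620 CPM in refed control and 39.9 to 75.2 CPM in refed LKO libraries, which is 20.7% and 11.9% of the control mean (exact two-sided permutation test, p = 0.0286 in each state, the smallest that 4 against 4 libraries allow). The labels give separate samples without saying that each is 1 mouse, so p-values measure the spread between these samples. All 8 hepatocyte markers were detected in every group. Their summed level moved with genotype: it was 70448 to 77462 CPM in fasted control, 58505 to 67309 in fasted LKO, 66674 to 89256 in refed control and 59401 to 72547 in refed LKO libraries. The LKO mean of that sum was 12.6% lower in the fast and 11.9% lower after refeeding, and in bulk tissue fewer cells of a type and less RNA per cell cannot be told apart. The 5 adipocyte markers summed to 9.81 to 58.1 CPM in fasted control, 0.448 to 9.63 in fasted LKO, 2.50 to 33.1 in refed control and 0.563 to 3.46 in refed LKO libraries. Of these 5, 1 was at 0 throughout fasted LKO and 1 throughout refed LKO liver, and 2 throughout refed control liver. Lymphocyte markers (7) summed to 4.14 to 5.74 CPM in refed control and 6.04 to 9.33 in refed LKO libraries, without overlap. Other sums overlapped between genotypes but had distant means: the macrophage sum in refed LKO liver was 63.2% of control, and the red blood cell sum in fasted LKO liver 55.7%. The part of these markers in the results was not tested.

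Per kb of gene length, so that genes can be compared, Igfbp2 was the most abundant of the 10, at 418 ± 286 CPM per kb (SD over 16 libraries). Igfals (47.8 ± 10.2), Ghr (44.8 ± 9.99) and Igf1 (41.8 ± 5.81 CPM per kb) followed, and their levels did not differ beyond their spread. Stat5b stood at 7.50 ± 1.20, Bcl6 at 4.41 ± 2.41 and Stat5a at 2.69 ± 0.622 CPM per kb. The spread of Bcl6 reached the level of Stat5a and overlapped the spread of Stat5b. Cish (1.14 ± 1.44), Onecut1 (0.977 ± 0.634) and Socs2 (0.598 ± 0.557 CPM per kb) were the lowest and overlapped each other. The counts behind them ran from 21 to 433 for Socs2, from 23 to 170 for Onecut1 and from 27 to 788 for Cish, against 4557 to 13072 for Ghr.

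**Figure D1:**
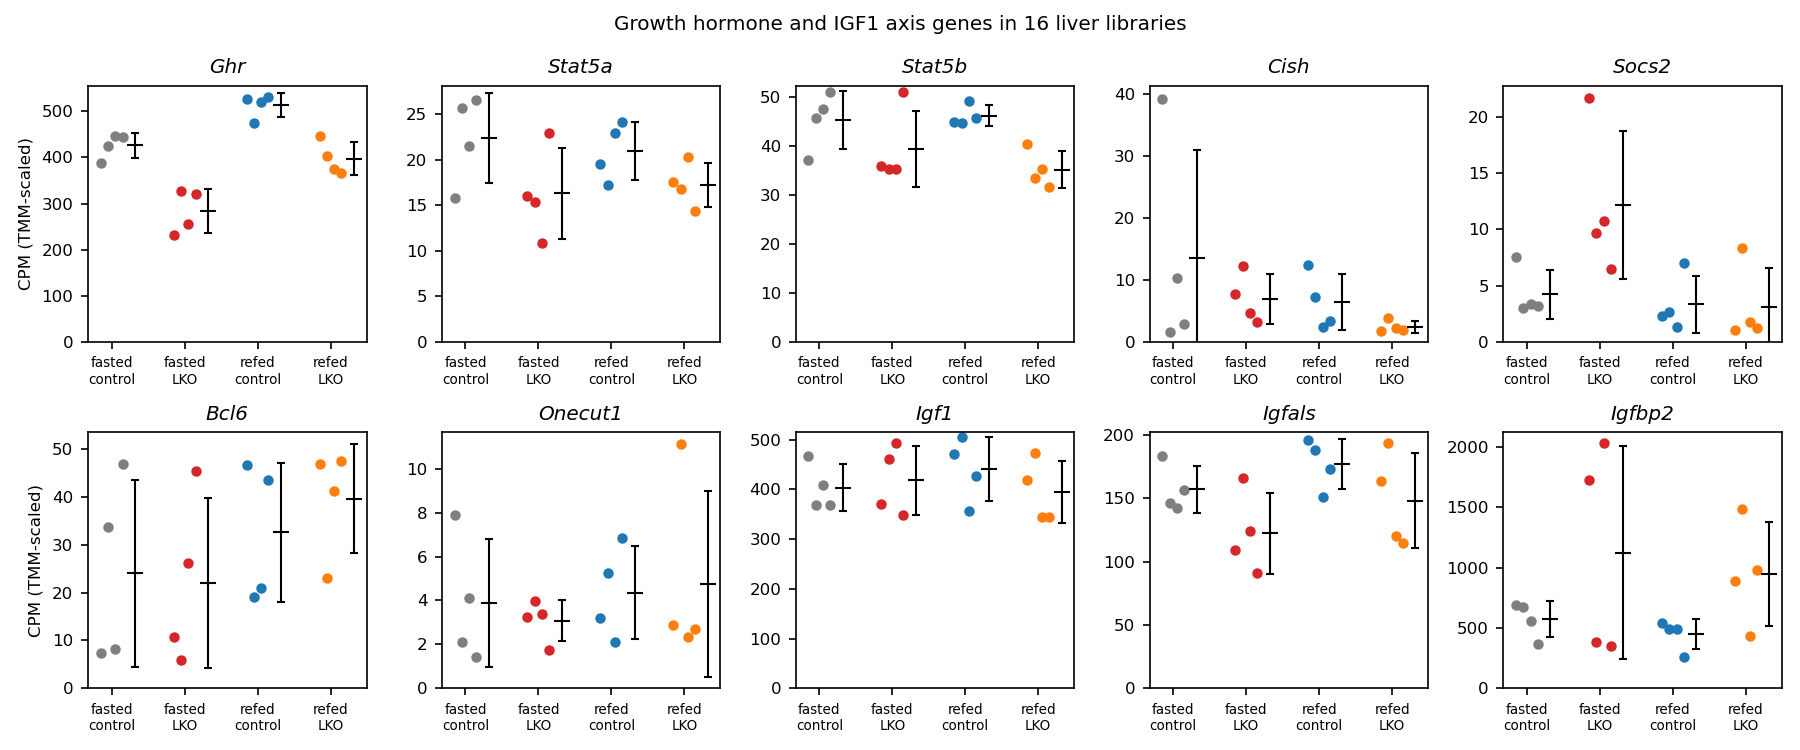
Level of each of the 10 genes in every library, in CPM scaled by TMM factors, with 1 panel per gene, 1 point per library and a cross bar with whiskers for the mean ± SD of the 4 libraries of a group; whiskers are drawn from 0 where the SD exceeds the mean. The Ghr points of fasted LKO lie below all other groups, the Igf1 points of the 4 groups overlap, and single libraries reach 39.1 CPM for Cish and 21.6 CPM for Socs2.

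Ghr, the receptor (ENSMUSG00000055737, chr15:3347242-3612974, minus strand), was the member with the clearest difference between genotypes. It read 387, 425, 447 and 445 CPM in the fasted control libraries and 232, 328, 255 and 320 CPM in the fasted LKO libraries. Every fasted LKO library lay below every fasted control library, as in 8.57% of all genes tested. The mean was 426 ± 27.8 against 284 ± 47.3 CPM (SD, n = 4 each), and the fitted level fell by 33.4%, a log2 fold change of -0.59 (SE 0.11, 95% interval -0.82 to -0.35, edgeR adjusted p = 0.00272). Ghr was the only one of the 10 genes called in the fast, where 12.2% of all genes tested were called and 6.48% were called lower. The fall of Ghr exceeded that of the hepatocyte marker sum, 33.4% against 12.6%, and the part of the marker difference in it was not tested.

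After refeeding Ghr read 527, 475, 520 and 532 CPM in control and 446, 402, 374 and 366 CPM in LKO libraries. The groups again did not overlap, which held with LKO lower for 2 of the 10 genes, Ghr and Stat5b, and for 5.03% of all genes. The means were 513 ± 26.3 and 397 ± 36.1 CPM, a log2 difference of -0.37 (SE 0.11, interval -0.61 to -0.13), which did not pass the adjusted threshold with edgeR (adjusted p = 0.0667) but did with DESeq2 (adjusted p = 0.0212). None of the 10 genes was called in this comparison, in which 3.63% of all genes were called. By edgeR, 2672 of all genes had an unadjusted p under 0.05, and Ghr, Stat5b and Igfbp2 were among them (0.00337, 0.00554 and 0.0431).

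Ghr levels were higher in refed than in fasted libraries of both genotypes. Within LKO liver, every refed library was above every fasted one, and Ghr rose by 0.48 on the log2 scale (SE 0.11, edgeR adjusted p = 0.00552). Within control liver, all 4 refed libraries were also above all 4 fasted ones, with a log2 difference of 0.27 (SE 0.11, adjusted p = 0.104), which passed only when the fit held these 2 groups alone (adjusted p = 0.0463). Groups that do not overlap with refed higher made up 10.6% of all genes in LKO and 10.4% in control liver. The 2 genotype effects were not shown to differ: the interaction was 0.22 (SE 0.15, edgeR adjusted p = 0.507). The mean of refed LKO liver, 397 CPM, stood below that of fasted control liver, 426 CPM, and the libraries of these groups overlapped. The calls of Ghr in the fast and in LKO refeeding each held in 8 of 8 fits that left out 1 library.

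**Figure D2:**
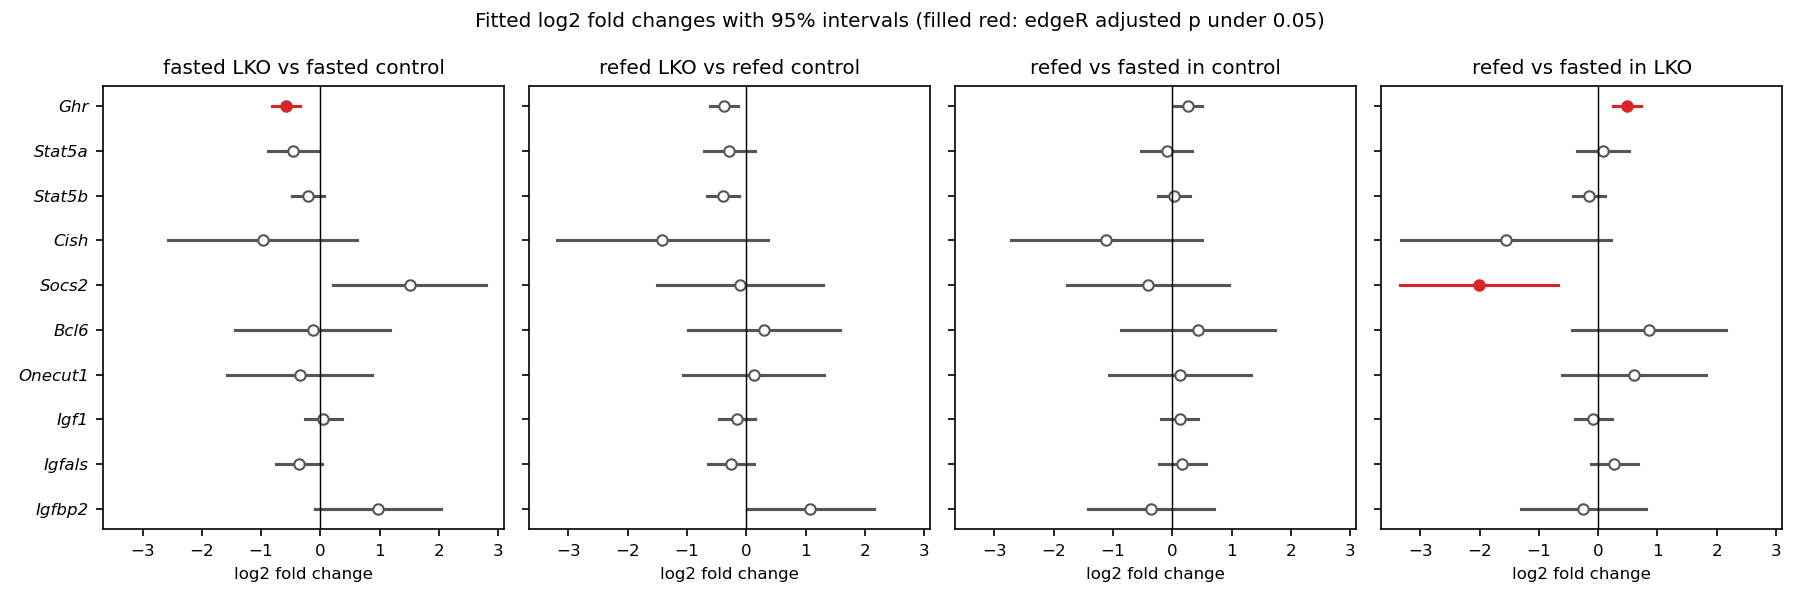
Log2 fold changes of the 10 genes in the comparisons named in the panels, with bars for the 95% interval of each estimate and filled points for an edgeR adjusted p under 0.05. The filled points are Ghr in the fasted genotype comparison and Ghr and Socs2 in the refeeding of LKO liver; the intervals of Igf1 and Ghr are short and those of Cish, Socs2, Bcl6 and Onecut1 long.

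The transducers were lower in LKO means in both states, without a call. Stat5b, the main STAT5 form of liver (ENSMUSG00000020919, chr11:100671557-100741550, minus strand), read 37.1, 45.7, 47.5 and 51.2 CPM in fasted control and 35.9, 35.3, 35.3 and 51.03 CPM in fasted LKO libraries. In 3 of the 4 fasted LKO libraries the level lay below all controls, and in S47 it lay among the controls. The log2 difference was -0.20 (SE 0.12, edgeR adjusted p = 0.314). In 8 fits that left out 1 library it ran from -0.35 to -0.14. Of these fits 1 passed, the one without S47 (-0.35, edgeR adjusted p = 0.0368).

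After refeeding Stat5b read 44.9, 44.8, 49.3 and 45.8 CPM in control and 40.4, 33.4, 35.3 and 31.7 CPM in LKO libraries. The groups did not overlap, and the log2 difference was -0.39 (SE 0.12, edgeR adjusted p = 0.0880; 0.0409 with only these 2 groups in the fit). Between feeding states Stat5b differed by 0.03 in control and -0.16 in LKO liver (adjusted p = 0.907 and 0.406).

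Stat5a (ENSMUSG00000004043, chr11:100750177-100775995, plus strand) read 15.7, 25.6, 21.5 and 26.5 CPM in fasted control and 16.0, 15.3, 10.9 and 22.9 CPM in fasted LKO libraries. The groups overlapped, with a log2 difference of -0.46 (SE 0.20, edgeR adjusted p = 0.152). In 8 fits that left out 1 library it ran from -0.66 to -0.30. Of these fits 1 passed, the one without S47 (-0.66, edgeR adjusted p = 0.0307). The refed difference of Stat5a was -0.28 (SE 0.20, edgeR adjusted p = 0.481). Stat5a and Stat5b are neighbours on chromosome 11 with closely similar coding sequences, so reads could be split between them, and the individual values are uncertain to that extent.

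Socs2, a STAT5 target whose product limits GH signalling (ENSMUSG00000020027, chr10:95221224-95253042, minus strand), was highest in fasted LKO liver. It read 7.50, 2.98, 3.35 and 3.15 CPM in fasted control, 21.6, 9.67, 10.8 and 6.46 CPM in fasted LKO, 2.30, 2.66, 1.31 and 6.99 CPM in refed control and 1.07, 8.31, 1.79 and 1.26 CPM in refed LKO libraries. In 3 fasted LKO libraries the level exceeded all fasted controls, and in the remaining one it lay below the highest control. The means were 12.1 ± 6.58 CPM in fasted LKO and 4.24 ± 2.17 in fasted control liver, and the log2 difference of 1.50 (SE 0.59) did not pass (edgeR adjusted p = 0.110; 0.0464 with only these 2 groups in the fit).

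On refeeding of LKO liver Socs2 fell by 2.02 on the log2 scale (SE 0.61, edgeR adjusted p = 0.0305), from 12.1 ± 6.58 to 3.11 ± 3.48 CPM. The groups overlapped, because the refed library S53 (8.31 CPM) exceeded the lowest fasted one. In this comparison 2 of the 10 genes were called, Ghr higher and Socs2 lower, where 18.1% of all genes were called, 9.28% higher and 8.78% lower. The Socs2 call held in 4 of 8 fits that left out 1 library: the adjusted p was 0.110 without S44, 0.0927 without S52, 0.0778 without S54 and 0.0944 without S55, and without S53 the log2 difference was -3.16 (adjusted p = 0.00207). With only the 2 groups in the fit the adjusted p was 0.0538. In control liver the refed to fasted difference was -0.41 (SE 0.63, adjusted p = 0.701), and the interaction was -1.61 (SE 0.87, adjusted p = 0.377), so a difference between genotypes in this response was not shown.

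Cish encodes CIS, a SOCS family protein that also limits STAT5 signalling (ENSMUSG00000032578, chr9:107173225-107179983, plus strand), and it carries the paired palindromes shown above. It read 39.1, 1.58, 10.4 and 2.84 CPM in fasted control, 7.69, 12.2, 4.65 and 3.17 CPM in fasted LKO, 12.5, 7.17, 2.47 and 3.39 CPM in refed control and 1.69, 3.86, 2.16 and 1.86 CPM in refed LKO libraries. The spread within fasted control liver, from 1.58 to 39.1 CPM, took in all values of the other 3 groups. Refed LKO liver was the tightest and lowest group, and it overlapped refed control liver. The log2 differences between genotypes were -0.97 (SE 0.73, edgeR adjusted p = 0.434) in the fast and -1.42 (SE 0.82, adjusted p = 0.380) after refeeding. In LKO liver the refed to fasted difference was -1.56 (SE 0.81, adjusted p = 0.207; 0.0327 with only these 2 groups in the fit).

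Bcl6, the repressor that competes with STAT5 (ENSMUSG00000022508, chr16:23783802-23807602, minus strand), was spread widely in fasted liver of both genotypes. It read 7.35, 33.7, 8.15 and 46.9 CPM in fasted control and 10.7, 5.94, 26.2 and 45.4 CPM in fasted LKO libraries. In refed liver it read 46.6, 19.2, 20.9 and 43.5 CPM in control and 46.8, 23.0, 41.3 and 47.5 CPM in LKO libraries. All groups overlapped, and the refed to fasted difference in LKO liver was 0.85 (SE 0.60, edgeR adjusted p = 0.359). The genotype differences were -0.13 in the fast and 0.29 after refeeding (adjusted p = 0.923 and 0.847).

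Onecut1 (HNF6, a liver-enriched factor regulated by GH; ENSMUSG00000043013, chr9:74769203-74799063, plus strand) stayed at 1.42 to 11.1 CPM in all libraries. It read 7.89, 2.10, 4.11 and 1.42 CPM in fasted control, 3.25, 3.96, 3.36 and 1.74 CPM in fasted LKO, 3.19, 5.26, 2.11 and 6.86 CPM in refed control and 2.87, 11.1, 2.35 and 2.69 CPM in refed LKO libraries. The groups overlapped in each comparison, with log2 differences from -0.35 (fasted genotype) to 0.60 (refeeding of LKO liver, SE 0.56) and edgeR adjusted p-values of 0.504 or more.

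Igf1, the main endocrine product of the axis (ENSMUSG00000020053, chr10:87694127-87772904, plus strand), had the smallest range of group means of the 10 genes, 0.16 on the log2 scale against 0.87 for Ghr. It read 468, 369, 409 and 369 CPM in fasted control, 370, 460, 493 and 348 CPM in fasted LKO, 472, 506, 357 and 427 CPM in refed control and 419, 472, 345 and 345 CPM in refed LKO libraries. The 4 groups overlapped, with means of 403 ± 46.7, 418 ± 69.9, 440 ± 64.0 and 395 ± 62.1 CPM. The genotype difference was 0.05 on the log2 scale in the fast (95% interval -0.26 to 0.36, a change of -16.3% to 28.3%) and -0.16 after refeeding (interval -0.46 to 0.15, -27.5% to 11.2%), with edgeR adjusted p-values of 0.860 and 0.614. The fasted interval lies above the fitted Ghr estimate of -0.59, although the difference between the 2 genes was not tested. Refeeding differences were 0.13 in control and -0.08 in LKO liver (adjusted p = 0.591 and 0.744).

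Igfals encodes the acid-labile subunit that holds IGF1 in its circulating complex (ENSMUSG00000046070, chr17:25084971-25100984, plus strand). It read 183, 146, 142 and 157 CPM in fasted control and 109, 166, 124 and 90.7 CPM in fasted LKO libraries, where 3 LKO libraries lay below all controls and S45 lay among them. The log2 difference was -0.36 (SE 0.18, edgeR adjusted p = 0.214). In 8 fits that left out 1 library it ran from -0.55 to -0.24. Of these fits 1 passed, the one without S45 (-0.55, edgeR adjusted p = 0.0469). After refeeding Igfals read 196, 188, 152 and 173 CPM in control and 164, 194, 120 and 115 CPM in LKO libraries. The refed difference was -0.26 (SE 0.18, edgeR adjusted p = 0.478).

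Igfbp2 encodes an IGF binding protein that the liver secretes (ENSMUSG00000039323, chr1:72863662-72891633, plus strand). It read 689, 674, 557 and 368 CPM in fasted control, 1726, 385, 2028 and 354 CPM in fasted LKO, 541, 490, 495 and 263 CPM in refed control and 886, 1482, 429 and 980 CPM in refed LKO libraries. In 5 of the 8 LKO libraries the level was above the highest control library, while the other LKO libraries lay within the control range. The log2 genotype differences, 0.97 in the fast (SE 0.49, edgeR adjusted p = 0.217) and 1.08 after refeeding (SE 0.49, adjusted p = 0.250), did not pass. The 2 fasted LKO libraries with high Igfbp2, S44 and S46, were the 2 with the lowest Ghr, at 232 and 255 CPM. These libraries were picked after their values were seen, and over all 16 libraries the within-group correlation of the 2 genes did not pass (r = -0.65, rho = -0.70, permutation p = 0.153, adjusted p = 0.238 over 45 pairs; r = -0.47 without the 2 libraries farthest on Ghr).

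Of the 10 genes, 3 had higher and 7 lower fitted levels in LKO liver in each feeding state, with medians of -0.27 and -0.21 on the log2 scale against 0.02 and -0.01 over all genes tested. Refed against fasted, 6 were higher and 4 lower in control liver (median 0.08), and 5 and 5 in LKO liver (median 0.00), against 0.01 and -0.02 over all genes. In control liver 0 of the 10 passed, where 15.4% of all genes tested were called and 4343 genes had an unadjusted p under 0.05, Ghr among the 10 (0.0243). For the interaction, 0 of the 10 passed, where 0.538% of all genes were called and 2397 had an unadjusted p under 0.05, none of them among the 10. The comparisons share groups, so these counts are not independent of each other.

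The authors' deposited table of each comparison gives the same sign as the fit here for 10 of 10 genes in all 4 comparisons, and lists 2, 3, 1 and 2 of them at an adjusted p under 0.05. In the authors' deposited table these are Ghr (0.000215) and Socs2 (0.00195) for fasted genotype, Ghr (0.00225), Stat5b (0.00698) and Cish (0.0354) for refed genotype, Ghr (0.0109) for refeeding in control, and Ghr (0.00395) and Cish (0.00192) for refeeding in LKO liver. Ghr was thus listed in each of the authors' deposited tables. The fit here shares 1 spread estimate over 16 libraries.

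Several of the 10 genes varied together between libraries of the same group, a comparison that was chosen after the values were seen. Each library's deviation of log2 CPM from its group mean was correlated over 16 libraries, for 45 pairs, with permutation within groups and Benjamini-Hochberg adjustment over the pairs. By Pearson's r 8 pairs passed, 6 by Spearman's rho and 5 by both. Igf1 and Igfals, which meet in the same circulating complex, rose and fell together (r = 0.84, rho = 0.86, permutation p = 0.000720, adjusted p = 0.0177; r = 0.81 without the 2 libraries farthest on Igf1). Only 0.269% of 14487 genes had an r with Igf1 at least as strong, counted in either direction, as for the shares below. Socs2 and Onecut1 likewise moved together (r = 0.83, rho = 0.82, permutation p = 0.000880, adjusted p = 0.0177, and r = 0.71 without the farthest 2), with 0.214% of genes as strong with Socs2. Igf1 and Onecut1 gave r = 0.74 (rho = 0.80, permutation p = 0.00118, adjusted p = 0.0177; r = 0.65 without the farthest 2), with 1.57% of genes as strong with Igf1.

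Stat5a and Stat5b gave r = 0.79 (rho = 0.79, permutation p = 0.00518, adjusted p = 0.0341, and r = 0.70 without the farthest 2). How reads that they may share were counted is not given, and the part of such reads was not tested. Stat5a ran against Igf1 (r = -0.70, rho = -0.71, permutation p = 0.00606, adjusted p = 0.0341, and r = -0.76 without the farthest 2). Counted in either direction, 2.91% of genes had an r with Igf1 at least as strong. The other pairs that passed by Pearson's r alone were Igfals with Onecut1 (r = 0.64, rho = 0.65), Igf1 with Cish (r = 0.62, rho = 0.60) and Igfals with Cish (r = 0.54, rho = 0.53), each with a permutation adjusted p = 0.0341 by r and of 0.0589, 0.0625 and 0.0742 by rho. Of these pairs, Igfals with Onecut1 was matched or exceeded by 3.64% of genes, and Igf1 with Cish and Igfals with Cish by 6.15% and 8.61%. By Spearman's rho alone, Stat5b ran against Cish (r = -0.61, rho = -0.64). Its permutation adjusted p was 0.0445 by rho and 0.0627 by r. The log2 library total correlated with the 10 genes at r of -0.46 to 0.41 and the hepatocyte marker sum at -0.37 to 0.33. The adipocyte marker sum ran from -0.58 with Igfbp2 to 0.47 with Stat5a, and stood at 0.42 with Ghr. The part of these measures in the pairs was not tested. Summed red blood cell markers ran from -0.36 with Bcl6 to 0.67 with Igfals. They stood at 0.64 with Igf1, 0.56 with Cish and 0.41 with Onecut1. Lymphocyte markers ran from -0.44 with Stat5b to 0.62 with Cish. The part of these blood and lymphocyte sums in the pairs was not tested either.

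**Figure D3:**
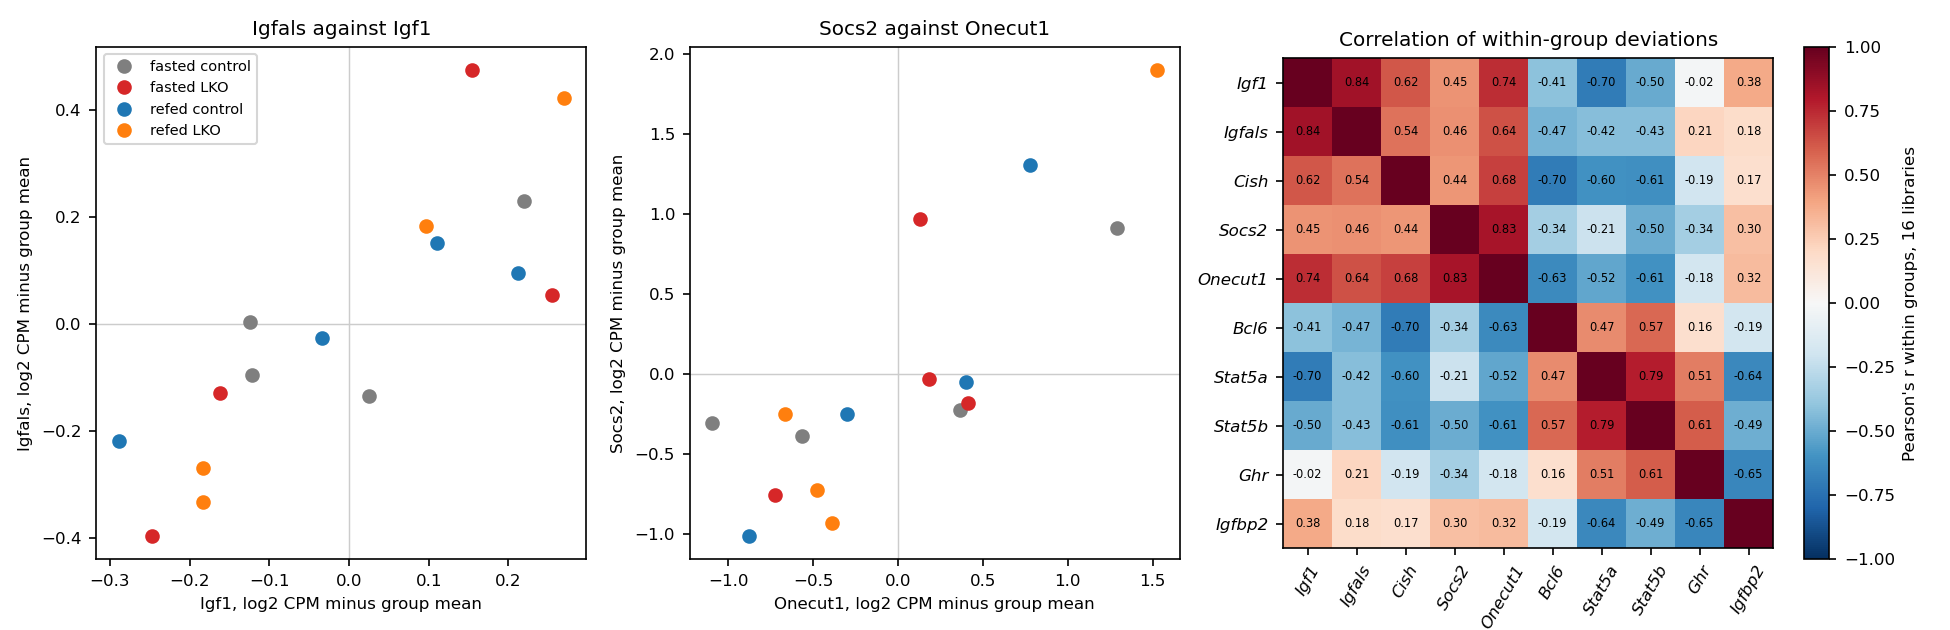
Deviations of log2 CPM from the group mean in 16 libraries, coloured by group, for Igf1 with Igfals and for Onecut1 with Socs2. The last panel is a map of Pearson's r within groups for all pairs of the axis genes. Igf1 with Igfals (r = 0.84) and Socs2 with Onecut1 (r = 0.83) rise along a line. For Igf1 with Stat5a the map gives r = -0.70.

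Genes whose library profiles were nearest to those of the 3 members with the largest range of group means were found over 16 libraries by the root mean square difference of centred log2 CPM, among 8894 genes. Socs2, whose own profile had a root mean square of 1.19, was nearest to Slc25a30 and Nlrp12 (0.68 each) and Acacb (0.69), the acetyl-CoA carboxylase of the mitochondrial surface. Slc25a30 stood at 79.7 ± 31.0 CPM in fasted LKO and 21.7 ± 5.20 in fasted control liver (SD, n = 4 each). Cish (1.23) was nearest to Phlda1 (0.88), Fcgr3 (0.92) and Rgs3 (0.95), and Bcl6 (1.03) to Cldn1 (0.78), Pcp4l1 (0.80) and Prox1 (0.82). These differences are smaller than each member's own spread but of the same order, so the likeness is loose.

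Of 15 other genes of GH receptor signalling, all tested, 2 were called higher and 0 lower in fasted LKO liver, 1 and 0 in refed LKO liver, 1 and 4 on refeeding in control and 1 and 4 on refeeding in LKO liver, with medians of -0.01, -0.04, 0.05 and -0.07 on the log2 scale. Over all genes tested, 12.2%, 3.63%, 15.4% and 18.1% were called in these comparisons, and the medians were 0.02, -0.01, 0.01 and -0.02. The 2 of 15 called in the fast are near the share of all genes. Irs2, an adaptor of the insulin receptor, read 8.74, 4.73, 8.53 and 11.9 CPM in fasted control and 25.0, 11.9, 38.9 and 21.0 CPM in fasted LKO libraries. It rose by 1.51 (SE 0.36, edgeR adjusted p = 0.0114) and fell by 1.98 on refeeding in LKO liver (SE 0.36, adjusted p = 0.00142). Socs1, an inhibitor of JAK kinases, read 0.319, 0.584, 0.438 and 0.339 CPM in refed control and 1.38, 1.31, 1.11 and 0.780 CPM in refed LKO libraries, a rise of 1.40 (SE 0.30, adjusted p = 0.0179; 0.0646 without S48). In control liver Socs1 fell by 1.51 on refeeding (SE 0.30, edgeR adjusted p = 0.00408). Its refed control levels are near the floor, and it passed the filter on low counts through the groups where it is higher. Both Socs1 calls compare such a group with this one, so they and the list counts that hold them support nothing about the list. Under the minimum of 5 CPM Socs1 has no value. Socs3, another inhibitor of cytokine receptors, fell on refeeding by 1.17 in control (SE 0.28, adjusted p = 0.0115) and by 1.003 in LKO liver (SE 0.29, adjusted p = 0.0224), the latter call lost without S44, S47, S52 or S54 (adjusted p up to 0.0567).

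Prlr, the prolactin receptor and a relative of Ghr, had lower means in LKO liver in both states without a call. It read 79.3, 103, 79.2 and 68.6 CPM in refed control and 43.2, 34.9, 45.4 and 42.7 CPM in refed LKO libraries, with no overlap and a log2 difference of -0.99 (SE 0.28, edgeR adjusted p = 0.0566). In the fast it read 48.9, 72.8, 62.6 and 70.6 CPM in control and 19.5, 60.4, 29.9 and 65.6 CPM in LKO libraries (-0.54, SE 0.28, adjusted p = 0.223). S44 and S46, with the lowest Ghr, were also lowest in Prlr, at 19.5 and 29.9 CPM. These libraries were picked after their values were seen, and a link between Prlr and Ghr was not tested.

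Among 15 IGF ligands, receptors, binding proteins and proteases, 10 could be tested. In fasted LKO liver 1 was called higher and 1 lower, on refeeding in LKO liver 1 and 2, and 0 in either direction in the refed genotype comparison and on refeeding in control, with medians of 0.09, -0.37, -0.10 and -0.24 in that order. All genes tested had shares called of 12.2%, 18.1%, 3.63% and 15.4% and medians of 0.02, -0.02, -0.01 and 0.01 in the same order, so these counts do not set the list apart. Igfbp4, a binding protein of the liver, read 4083, 3793, 3810 and 3479 CPM in fasted control and 2166, 2688, 2710 and 2245 CPM in fasted LKO libraries, with no overlap. It fell by 0.63 on the log2 scale (SE 0.09, edgeR adjusted p = 7.53e-04), which held without each library. Refed levels were 3328, 3369, 3063 and 3248 CPM in control and 2793, 3263, 3021 and 3026 CPM in LKO libraries, and the interaction of 0.52 did not pass (adjusted p = 0.0707). In LKO liver Igfbp4 rose by 0.30 on refeeding (SE 0.09, adjusted p = 0.0343), a call lost without S44, S47, S53, S54 or S55 (adjusted p up to 0.0952).

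Igfbp1, a fasting-induced binding protein, read 23.6, 37.4, 39.1 and 31.7 CPM in fasted control and 107, 20.2, 193 and 96.7 CPM in fasted LKO libraries. In 3 LKO libraries the level lay above all controls and in S45 below them, and the rise of 1.66 (SE 0.49, edgeR adjusted p = 0.0352) was lost in 6 of 8 fits without a library, S40, S41, S42, S43, S44 or S46 (adjusted p up to 0.135). On refeeding in LKO liver it fell by 2.53 (SE 0.51, adjusted p = 0.00272), to 13.9, 28.0, 14.0 and 16.5 CPM. The insulin receptor Insr fell by 0.39 in that comparison (SE 0.10, adjusted p = 0.00913). Igfbp3, the partner of IGF1 and IGFALS in the ternary complex, gave -0.54 there (SE 0.19, adjusted p = 0.0582).

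**Figure D4:**
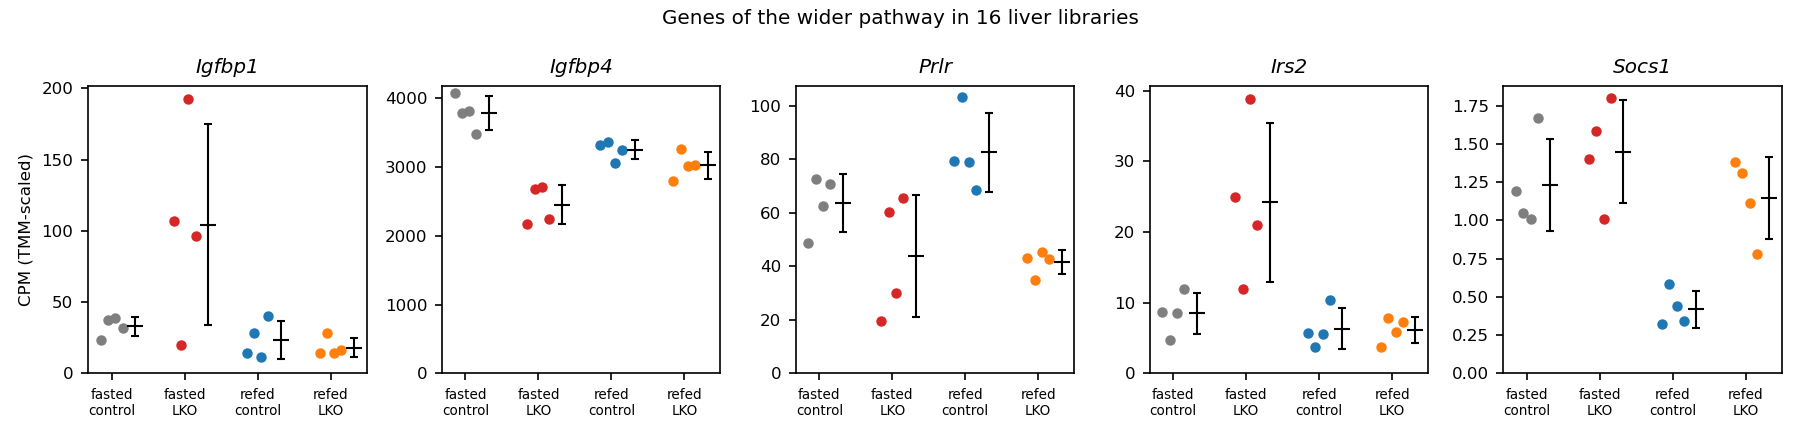
Level of 5 genes around the axis in every library, in CPM scaled by TMM factors, 1 point per library, with the mean ± SD of 4 libraries per group. Igfbp4 is lower in all fasted LKO libraries, Irs2 and Igfbp1 peak in fasted LKO liver, and Prlr is lower in all refed LKO libraries. Socs1 is lowest in refed control liver, where it is near the floor.

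Of 11 factors tied to hepatic GH sensitivity, 1 was called higher and 1 lower in fasted LKO liver, 0 in refed LKO liver, 1 and 2 on refeeding in control and 0 and 2 on refeeding in LKO liver, with medians of -0.03, -0.19, -0.03 and -0.23. The shares of all genes called were 12.2%, 3.63%, 15.4% and 18.1%, with medians of 0.02, -0.01, 0.01 and -0.02, and the counts of 2 among 11 are near them. Fgf21, a hormone reported to blunt GH signalling in liver, stood at 67.8 ± 24.1 CPM in fasted LKO and 18.8 ± 15.1 CPM in fasted control liver (SD, n = 4 each), without overlap. It rose by 1.84 (SE 0.57, edgeR adjusted p = 0.0453), a call lost without S41, S42, S43, S44 or S46 (adjusted p up to 0.130). On refeeding in LKO liver it fell by 1.74 (SE 0.57, adjusted p = 0.0431), to 20.4 ± 10.6 CPM, a call lost without S44, S45, S46, S52, S54 or S55 (adjusted p up to 0.122). Klb, the FGF21 co-receptor, fell by 0.72 there (SE 0.17, adjusted p = 0.00621). In control liver the refed to fasted differences were -0.46 for Klb and -1.30 for Fgf21 (edgeR adjusted p = 0.0701 and 0.154). The interactions were -0.26 and -0.45 (edgeR adjusted p = 0.606 and 0.822). A difference between genotypes in these responses was thus not shown.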

How the data were processed

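Liver RNA of 16 samples was sequenced after poly-A selection, with random hexamers and dUTP, per the labels' protocols; HISAT2 2.0.5 and mm39 are named per the submitters' processing notes, and the counting tool, annotation and use of strand are not given in the sources used here. The authors deposited 4 tables, each for 2 groups, with raw read counts per gene, log2 fold changes and p-values; 64 further columns with values per library were left out. The authors' log2 fold changes were turned in sign so that LKO stands over control and the refed state over the fasted one, and the authors' p-values entered no test here. Gene coordinates are those deposited; sequences are RefSeq's, GRCm38.p6. Library columns S40 to S55 match no sample title and take their group from the heading that the 2 tables holding a column share.

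Joining the tables by gene identifier gave 25803 genes, with 0 counts differing between them; genes absent from a library's tables (3148) were set to 0. In R 4.3.3, edgeR 4.0.16 (filterByExpr, TMM factors of 0.941 to 1.07, glmQLFit and glmQLFTest) fitted 14488 genes in all 16 libraries for 5 contrasts, with adjusted p-values by Benjamini-Hochberg over all genes and calls under 0.05. The biological coefficient of variation was 0.185. SE is the log2 fold change over the square root of F, and 95% intervals use 12 residual degrees of freedom. limma 3.58.1 and DESeq2 1.42.0 served as alternatives, and the scripts were tested on simulated data. Log2 CPM used a prior count of 2, and correlations 100000 permutations.

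The 10 genes and the lists were chosen with earlier results of these data known. Genes could be named if they belong to the 10, to a list, or are the 3 protein-coding genes of at least 5 CPM nearest in library profile to each of the 3 members with the largest range of group means; those named from the lists were chosen after their values were seen.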

Additional observations from a re-analysis of the deposited data

Results flagged for a closer look

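In 4 of 40 tests of single groups, 1 library stood apart from the other 3 by Dixon's ratio at the 95% level; chance flags about 1 in 20 groups. Stat5b stood at 51.03 CPM in fasted LKO library S47, against 35.9 CPM in the nearest. Socs2 stood at 7.50 CPM in fasted control library S40, against 3.35 CPM in the nearest. Library S53 of refed LKO liver stood apart for both Socs2 (8.31 CPM, nearest 1.79) and Onecut1 (11.1 CPM, nearest 2.87).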

How the results depend on the processing

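No paired analysis was possible because the count columns carry no replicate number. DESeq2 size factors, upper quartile factors, DESeq2, limma-voom, a minimum of 5 CPM, no filter, and fits of only the compared groups were tried, besides leaving out each library. Onecut1 is under the 5 CPM minimum and has no value there; the deposited FPKM were not run as an alternative. Of the log2 fold changes of the 10 genes under these settings, 327 kept direction and side of the threshold, 5 gained a call, 1 lost it and 2 uncalled ones reversed: limma-voom gave -0.048 for Onecut1 in refed genotype and 0.059 for Igfbp2 on refeeding in LKO liver. With only the 2 groups fitted, 2 of the 10 were called in fasted genotype (Ghr and Socs2), 1 in refed genotype (Stat5b) and 1 on refeeding in control (Ghr); DESeq2 called 1 in refed genotype (Ghr). The cause was not tested. Leaving out a library, the called count ran from 1 to 3 in fasted genotype and from 1 to 2 on refeeding in LKO liver, and was 0 in the other 3 comparisons. Of the values without a library, 435 kept direction and side of the threshold, 3 gained a call, 4 lost it and 38 reversed. Uncalled values that changed sign when a library was left out ranged, in fasted genotype, from -0.039 to 0.13 for Igf1, -1.39 to 0.50 for Cish, -0.75 to 0.42 for Bcl6 and -0.62 to 0.28 for Onecut1. In refed genotype they ranged from -1.24 to 0.54 for Socs2 and -0.71 to 0.42 for Onecut1. On refeeding in control they ranged from -0.23 to 0.0018 for Stat5a, -0.058 to 0.091 for Stat5b, -1.06 to 0.028 for Socs2, -1.65 to 0.36 for Cish and -0.17 to 0.76 for Onecut1. On refeeding in LKO liver they ranged from -0.18 to 0.0082 for Igf1, -0.55 to 0.20 for Igfbp2, -0.070 to 0.29 for Stat5a and -0.22 to 0.82 for Onecut1. For the interaction they ranged from -0.054 to 0.30 for Igfals, -0.20 to 0.56 for Igfbp2, -1.92 to 0.10 for Cish, -0.13 to 1.04 for Bcl6 and -0.36 to 0.77 for Onecut1. Of 33 calls of list genes, 12 held without each library, a check added after seeing the data. The 8 correlated pairs kept their call under other scalings, an alternative added after seeing the data. Counts as low as 21 limit Socs2, Cish and Onecut1.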

Other observations

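Genes whose liver level differs between the sexes follow the pattern of GH pulses, and 20 male-biased genes, all tested, held 0 called higher and 1 lower in fasted LKO liver and 0 and 1 in refed LKO liver, with medians of 0.28 and 0.07 on the log2 scale. Over all genes tested, 12.2% were called in the fast (6.48% lower) and 3.63% after refeeding, with medians of 0.02 and -0.01. On refeeding, 0 of the 20 were called in control liver (15.4% of all genes by edgeR) and 1 higher and 1 lower in LKO liver (18.1%). Nudt7, a peroxisomal coenzyme A hydrolase, fell by 0.81 in the fast (SE 0.24, edgeR adjusted p = 0.0362), from 390 ± 89.5 to 222 ± 63.0 CPM (SD, n = 4 each); the call was lost without S40, S41, S42, S45 or S47 (adjusted p up to 0.114). It rose by 0.92 on refeeding in LKO liver (SE 0.24, adjusted p = 0.0148). The other call there was Moxd1, lower by edgeR (adjusted p = 0.0473), whose level in fasted LKO liver ran from 0 to 20.2 CPM; without S46 its log2 difference was -0.41 (adjusted p = 0.871), and the call was also lost without S52, S54 or S55. Ugt2b1, a glucuronosyltransferase, fell by 0.85 in refed LKO liver (SE 0.20, adjusted p = 0.0280), from 275 ± 37.3 to 153 ± 16.6 CPM, and the call was lost without S48, S50, S53, S54 or S55.

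Of 20 female-biased genes, 10 were tested, and in refed LKO liver 1 was called higher and 2 lower, where 3.63% of all genes were called, with a median of -1.08 against -0.01 over all genes tested. In the fast 0 were called higher and 1 lower (12.2% of all genes), with 5 higher and 5 lower fitted levels and a median of -0.17 against 0.02. Genes of low level passed the filter through the groups where they are high, so these counts and medians support nothing about the list. Abcd2, a peroxisomal fatty acid transporter, rose by 1.27 (SE 0.27, edgeR adjusted p = 0.0168), from 14.1 ± 4.09 to 34.0 ± 9.95 CPM (SD, n = 4 each), and the call was lost without S48 or S55 (adjusted p up to 0.0665). Cyp2b13, one of a family of near-identical genes and so uncertain, fell from 15.4 ± 8.57 to 0.677 ± 0.934 CPM, and Hao2, a hydroxyacid oxidase, from 1.15 ± 0.289 to 0.0709 ± 0.0824 CPM. Both calls (edgeR adjusted p = 0.0318 and 0.0201) were lost without S50, S53, S54 or S55, and that of Cyp2b13 also without S48. Hao2 lies near 1 CPM in control liver and passed the filter on low counts through those groups; with only the 2 fasted groups in the fit it was filtered out. Its edgeR adjusted p in the fast was 0.0240, and the call was lost without S43, S44, S45 or S46 (adjusted p up to 0.0976).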
